A study of Mus musculus with 16 samples.

Results

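The genes described here are Csf1r, which encodes the CSF-1 receptor, Csf1, which encodes its ligand, Adgre1, which encodes the macrophage surface protein F4/80, and the transcription factor genes Spi1, Maf, Cebpa, Cebpb, Irf8 and Klf4. They were taken from the tables by gene name, by a rule that uses no measured value. The members, and the gene lists set beside them below, were however chosen with earlier results of these data known. They are 9 of the 54532 genes in the deposited tables, and all 9 were among the 15469 genes that passed the filter on low counts. RNA was measured in 16 libraries of bone-marrow-derived macrophages from the tibiae of wild-type C57BL/6J mice, 2 to 3 months old. The 4 groups of 4 libraries were fibronectin with anti-ITGAV (fibronectin_antiITGAV), fibronectin with IgG (fibronectin_IgG), uncoated with anti-ITGAV (uncoated_antiITGAV) and uncoated with IgG (uncoated_IgG). Fibronectin, a matrix glycoprotein bound by integrins, was coated at 10 µg/ml, and the uncoated groups were on normal culture dishes. Anti-ITGAV neutralizes the αV integrin subunit and IgG is its control antibody, each given at 10 µg/ml for 24 h. All groups were differentiated with added CSF-1, at 12 ng/ml for 24 h and then 120 ng/ml for 48 h, in 15% serum. Whether CSF-1 was still present during the antibody treatment is not given in the sources used here. How many mice gave the marrow, and whether libraries came from separate cultures, is not in the labels either, so the p-values rest on the spread between these samples alone, and that spread may be technical.

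CSF-1 binds a receptor tyrosine kinase, the product of Csf1r, and macrophages grown from marrow depend on that signal to survive, divide and mature. The factor PU.1, made from Spi1, opens the myeloid programme and is required for transcription of Csf1r, and C/EBPα, made from Cebpa, works with it in committing progenitors to the myeloid lineage. Irf8 and Klf4 favour the monocyte branch over the granulocyte branch, Cebpb acts in activated and maturing macrophages, and Maf is among the factors that restrain macrophage self-renewal in mice.

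RefSeq windows upstream of the transcription start were held for 5 of the 9 genes, and 3 are shown, 250 bases each on build GRCm38.p6. Irf8 and Cebpa are shown because their levels ran close together over the libraries and the windows shown hold a TATA box, and Klf4 because its level leaned the other way on fibronectin. For Irf8 2 windows were held, and the upstream one is shown. The other (chr8:120738389-120738638, plus strand, 54.0% G or C) holds none of the motifs searched. Capitals mark letters that match a searched motif on either strand, and a match on the minus strand is seen as its reverse complement.
Irf8 (chr8:120736108-120736357, plus strand): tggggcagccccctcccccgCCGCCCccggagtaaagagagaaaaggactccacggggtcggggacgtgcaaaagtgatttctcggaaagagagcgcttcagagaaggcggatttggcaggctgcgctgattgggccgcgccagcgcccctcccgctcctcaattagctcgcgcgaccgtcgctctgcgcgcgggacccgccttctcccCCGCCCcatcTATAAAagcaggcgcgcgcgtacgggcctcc
Cebpa (chr7:35119043-35119292, plus strand): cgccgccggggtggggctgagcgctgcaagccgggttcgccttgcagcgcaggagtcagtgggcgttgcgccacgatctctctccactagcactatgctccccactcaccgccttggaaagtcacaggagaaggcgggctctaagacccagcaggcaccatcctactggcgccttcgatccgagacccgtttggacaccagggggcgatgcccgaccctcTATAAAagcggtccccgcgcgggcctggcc
Klf4 (chr4:55532476-55532725, minus strand): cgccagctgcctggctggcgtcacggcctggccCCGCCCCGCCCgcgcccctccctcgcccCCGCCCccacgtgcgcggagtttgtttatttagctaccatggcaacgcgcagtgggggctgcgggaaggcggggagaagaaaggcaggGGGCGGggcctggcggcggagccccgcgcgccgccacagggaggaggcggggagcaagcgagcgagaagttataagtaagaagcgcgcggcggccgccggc
The motifs searched were GAGGAA (an ETS core of the PU.1 type), TATAAA (the TATA box), GGGCGG (the GC box), TTGCNNAA (C/EBP type) and an IRF-type motif, GAAA repeated after 2 free bases, read on both strands. In these windows matches of different motifs do not overlap, and those of GGGCGG at 217 and 212 bases in Klf4 share 1 letter. TATAAA begins 31 bases before the upstream start of Irf8 and 30 bases before that of Cebpa, and 12.4% of all 32851 such windows hold it on either strand. The window shown for Irf8 also holds GGGCGG beginning 230 and 41 bases before the start, and that of Klf4 holds it 4 times, at 217, 212, 189 and 101 bases, a motif found in 32.7% of all windows. The letters GAGGAA (23.3% of all windows), TTGCNNAA (9.6%) and the IRF-type motif (3.0%) are not in these 3 windows. The windows are 67.2% G or C in Irf8, 66.4% in Cebpa and 74.0% in Klf4. A match is a description of letters and no measurement of binding.

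The libraries held 27995035 to 43413650 counts each, and all 9 genes had counts well above 0 in every library. The smallest count of any of them in any library was 155, for Csf1 in uncoated_IgG 3. Genes of macrophage identity other than these 9 had a median of 354 CPM (counts scaled to each library's total after edgeR's TMM adjustment) over 21 genes, led by the lysozyme gene Lyz2 at 23421 CPM. The library fibronectin_antiITGAV 3 stood apart from the other 15. Its mitochondrial share of counts was 3.67%, against 1.30 to 1.60% elsewhere. Its levels leaned against GC-rich transcripts, with a Spearman correlation across genes of -0.69 between a gene's deviation and its GC content, against -0.29 to 0.54 in the other libraries. The main values that rest on it are given with and without it.

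Levels per length ordered the 9 genes into tiers that were nearly the same in every group. FPKM, which scales counts to gene length and library total, is used for this order, since CPM cannot be compared between genes of different length. Csf1r averaged 479 FPKM over the 16 libraries, rank 59 of the 15469 genes tested. Adgre1 averaged 455 FPKM, rank 67. The libraries of Csf1r and Adgre1 overlapped in all 4 groups. Within single libraries the ratio of Csf1r to Adgre1 ran from 0.782 to 1.26, with a median of 1.07. It was above 1 in every library of fibronectin_IgG (1.07 to 1.26) and uncoated_antiITGAV (1.004 to 1.088). The lowest ratio was 0.994 in uncoated_IgG and 0.782 in fibronectin_antiITGAV, so the order of these 2 genes did not hold in every library.

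The transcription factor genes followed, with Spi1 at 119 FPKM (rank 352), Maf at 89.8 FPKM (rank 481) and Cebpa at 74.1 FPKM (rank 599). Cebpb averaged 27.97 FPKM and Irf8 25.7 FPKM, and their libraries overlapped in every group. Spi1 and Maf overlapped in fibronectin_antiITGAV, and Maf and Cebpa in fibronectin_IgG and uncoated_antiITGAV. Klf4 was far lower at 2.75 FPKM (rank 8605), and Csf1 lowest at 1.35 FPKM (rank 10244), below Klf4 in every library of every group. The order of the overall means held in 10 of the 16 libraries. Receptor RNA exceeded that of its ligand by a ratio of 271 to 485 in single libraries, with a median of 363, per length. Added CSF-1 protein is not seen by this measurement.

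**Figure D1:**
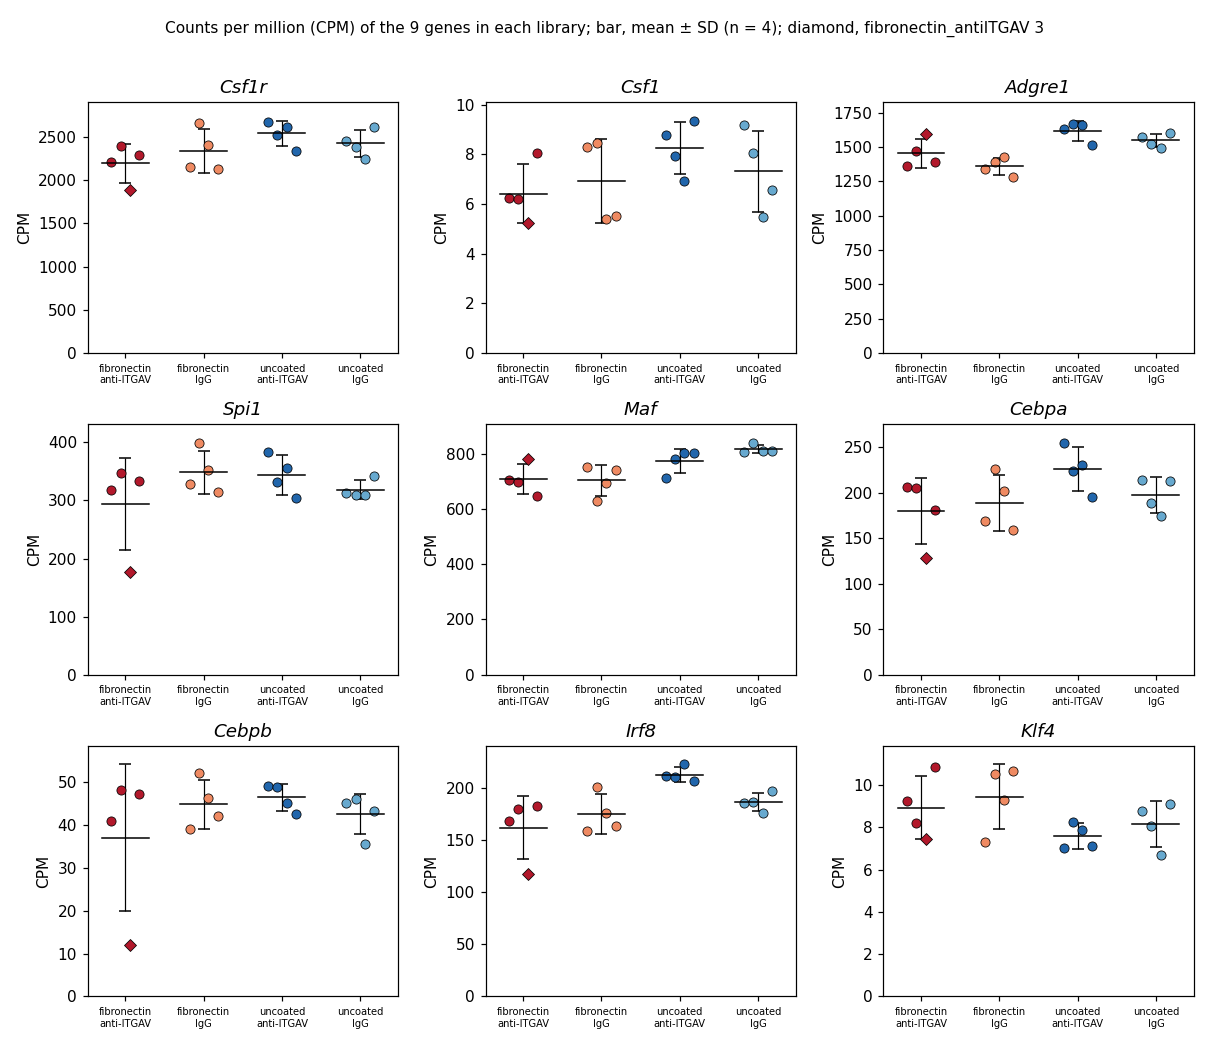
Level of each gene in CPM (y axis, from 0, a separate scale per gene) in the 4 groups (x axis), with 1 point per library, a line at the mean and bars for the SD (n = 4). Adgre1 and Maf sit lower in most fibronectin libraries than in uncoated ones, and the diamond, fibronectin_antiITGAV 3, lies far below its group for Spi1 and Cebpb.

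Fibronectin against uncoated dishes, over both antibodies, gave the only member that passed edgeR's test. Adgre1 fell by 11.2% on fibronectin, and the values of Maf and Irf8 were also lower there in 8 of 8 libraries set against the uncoated median, without passing. That count was 7 of 8 for Csf1r, Adgre1 and Cebpa, 5 for Csf1, 4 for Cebpb, 3 for Spi1 and 2 for Klf4. It was not computed for all genes, so it has no background here. Of the 9 genes 1 was called at an adjusted p under 0.05, or 11.1%, beside 11.8% of all genes tested in that comparison, so the share called was close to the background. Without fibronectin_antiITGAV 3, Adgre1, Maf and Irf8 were called, 3 of 9, beside 15.7% of all genes. The median log2 change of the 9 was -0.17, against 0.00 for all genes tested, with 8 of 9 below 0. Without fibronectin_antiITGAV 3 that median was -0.13 and 6 of 9 were below 0, since the values of Spi1 and Cebpb turned positive. In each comparison under a single antibody 0 of 9 were called, beside 5.66% of all genes under anti-ITGAV and 3.79% under IgG. Under IgG 6 of 9 values were below 0, with a median of -0.06. All 8 fibronectin libraries were apart from all 8 uncoated ones for 0 of the 9 genes, beside 3.82% of all genes. In bulk RNA, fewer cells of a type and less RNA per cell cannot be told apart.

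The receptor gene Csf1r lies on chromosome 18 (61105572 to 61132149, plus strand, GRCm38). Its level was 2206, 2400.4, 1882 and 2296 CPM in fibronectin_antiITGAV and 2152, 2657, 2413 and 2124 CPM in fibronectin_IgG. It was 2676, 2528, 2617 and 2341 CPM in uncoated_antiITGAV and 2455, 2387, 2243 and 2613 CPM in uncoated_IgG. The 2 coatings overlapped, although 4 of 8 fibronectin libraries lay below the lowest uncoated one. The log2 change on fibronectin was -0.13 ± 0.07 (SE, adjusted p by edgeR = 0.243), with a 95% interval of -0.27 to 0.01, and without fibronectin_antiITGAV 3 it was -0.10. The gene Hmgxb3 overlaps Csf1r on the other strand, but its whole count was 1.32% of that of Csf1r.

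The ligand gene Csf1 (chromosome 3, 107741048 to 107760469, minus strand) was low and scattered. It had 6.23, 6.20, 5.22 and 8.05 CPM in fibronectin_antiITGAV and 8.29, 8.47, 5.38 and 5.52 CPM in fibronectin_IgG. It had 8.79, 7.95, 6.94 and 9.35 CPM in uncoated_antiITGAV and 9.17, 8.07, 5.47 and 6.56 CPM in uncoated_IgG. Each group of Csf1 overlapped the next. The log2 change on fibronectin was -0.22 ± 0.14 (SE, adjusted p by edgeR = 0.354), and its interval of -0.52 to 0.07 spans -30.0% to 4.68%. Without fibronectin_antiITGAV 3 the change was -0.18.

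Adgre1 (chromosome 17, 57358691 to 57483527, plus strand) encodes F4/80, the surface receptor used to recognise mouse macrophages. It had 1363, 1471, 1595 and 1389 CPM in fibronectin_antiITGAV and 1337, 1393, 1425 and 1279.7 CPM in fibronectin_IgG. It had 1630.1, 1669, 1661 and 1514 CPM in uncoated_antiITGAV and 1571, 1524, 1495.5 and 1602 CPM in uncoated_IgG. In 7 of 8 fibronectin libraries the level was below the lowest uncoated one, the exception being fibronectin_antiITGAV 3. The mean was 1407 ± 95.2 CPM on fibronectin and 1583 ± 67.7 CPM on uncoated dishes (SD, n = 8 each), a log2 change of -0.17 ± 0.05 (SE, adjusted p by edgeR = 0.0382). The change was -0.15 under anti-ITGAV (adjusted p by edgeR = 0.226) and -0.19 under IgG (adjusted p by edgeR = 0.199), and under IgG the libraries did not overlap, as for 13.1% of all genes there. Without fibronectin_antiITGAV 3 it was -0.19 (adjusted p by edgeR = 0.00391). The call was lost when any 1 of 11 other libraries was left out, with adjusted p by edgeR = 0.0514 to 0.0892. These were fibronectin_antiITGAV 1 and 4, fibronectin_IgG 1, 3 and 4, uncoated_antiITGAV 1, 2 and 3, and uncoated_IgG 1, 2 and 4, and with the replicate number as a block the adjusted p was 0.0632.

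Maf (chromosome 8, 115682942 to 115707794, minus strand) encodes c-Maf, a leucine zipper factor of mature macrophages. It had 706, 697, 782 and 648 CPM in fibronectin_antiITGAV and 752, 628, 695 and 740.4 CPM in fibronectin_IgG. It had 710.2, 779, 803 and 804 CPM in uncoated_antiITGAV and 807, 839.9, 811 and 808 CPM in uncoated_IgG. All 8 fibronectin libraries lay below the uncoated median, 5 of them below the lowest uncoated library. Under IgG the coatings did not overlap, as for 13.1% of all genes there, and under anti-ITGAV they did. Maf changed by -0.13 on the log2 scale under anti-ITGAV (adjusted p by edgeR = 0.354) and by -0.21 under IgG (adjusted p by edgeR = 0.180). The log2 change over both antibodies was -0.17 ± 0.06 (SE, adjusted p by edgeR = 0.0602), with an interval of -0.29 to -0.05. Without fibronectin_antiITGAV 3 it was -0.20 (adjusted p by edgeR = 0.00872), past the threshold. It also passed without fibronectin_IgG 1 (adjusted p by edgeR = 0.0466) and without uncoated_antiITGAV 1 (adjusted p by edgeR = 0.0470).

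Irf8 (chromosome 8, 120736358 to 120756694, plus strand), a factor of monocyte and dendritic cell development, had lower values on fibronectin under each antibody. It had 168, 179.7, 118 and 182 CPM in fibronectin_antiITGAV and 159, 201, 176 and 163 CPM in fibronectin_IgG. It had 212, 210.3, 223 and 207 CPM in uncoated_antiITGAV and 186, 187, 176 and 197 CPM in uncoated_IgG. Under anti-ITGAV the coatings did not overlap, as for 14.1% of all genes, and under IgG they did. The log2 change was -0.39 ± 0.12 under anti-ITGAV (SE, adjusted p by edgeR = 0.0558), -0.09 ± 0.12 under IgG (SE, adjusted p by edgeR = 0.819) and -0.24 ± 0.08 over both (SE, adjusted p by edgeR = 0.0667). These changes were not shown to differ between antibodies, since the interaction was -0.30 ± 0.16 (SE, adjusted p by edgeR = 0.646). Without fibronectin_antiITGAV 3 the change under anti-ITGAV was -0.27 (adjusted p by edgeR = 0.0481) and that over both was -0.18 (adjusted p by edgeR = 0.0263), both past the threshold.

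Irf8 passed under anti-ITGAV also without fibronectin_IgG 2 or fibronectin_antiITGAV 2 (adjusted p by edgeR = 0.0435 and 0.0424). Over both antibodies it passed without fibronectin_IgG 2 (0.0341), fibronectin_antiITGAV 2 (0.0404) or fibronectin_antiITGAV 4 (adjusted p by edgeR = 0.0443).

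Klf4 (chromosome 4, 55527143 to 55532466, minus strand), a zinc finger factor of monocytes, had a higher value on fibronectin under each antibody. It had 9.22, 8.22, 7.43 and 10.9 CPM in fibronectin_antiITGAV and 7.31, 10.5, 9.30 and 10.6 CPM in fibronectin_IgG. It had 7.03, 8.26, 7.89 and 7.10 CPM in uncoated_antiITGAV and 8.78, 8.07, 6.67 and 9.11 CPM in uncoated_IgG. Of the 8 fibronectin libraries 5 lay above the highest uncoated one, and the groups overlapped. The log2 change was 0.22 ± 0.11 (SE, adjusted p by edgeR = 0.215), with an interval of -0.0026 to 0.45. Without fibronectin_antiITGAV 3 it was 0.26 (adjusted p by edgeR = 0.0984).

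Spi1 (chromosome 2, 91082390 to 91115756, plus strand), the PU.1 gene, had 318, 347, 176 and 333 CPM in fibronectin_antiITGAV and 328, 399, 352 and 314 CPM in fibronectin_IgG. It had 384, 332, 356 and 304 CPM in uncoated_antiITGAV and 313, 309.8, 309 and 343 CPM in uncoated_IgG. The coatings overlapped, and fibronectin_antiITGAV 3 alone lay below every uncoated library. The log2 change on fibronectin was -0.05 ± 0.11 (SE, adjusted p by edgeR = 0.836). Its sign rested on fibronectin_antiITGAV 3, since without that library the change was 0.04 (adjusted p by edgeR = 0.752), and under IgG it was 0.13 (adjusted p by edgeR = 0.807).

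Cebpa (chromosome 7, 35119293 to 35121928, plus strand) had 207, 205, 128 and 181 CPM in fibronectin_antiITGAV and 169, 226, 202 and 159 CPM in fibronectin_IgG. It had 255, 224, 230.3 and 196 CPM in uncoated_antiITGAV and 214, 189, 175 and 213 CPM in uncoated_IgG. In 7 of 8 fibronectin libraries Cebpa was below the uncoated median, and the coatings overlapped. The log2 change was -0.20 ± 0.10 (SE, adjusted p by edgeR = 0.258), and without fibronectin_antiITGAV 3 it was -0.13 (adjusted p by edgeR = 0.330).

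Cebpb (chromosome 2, 167688915 to 167690418, plus strand) had 40.9, 48.2, 11.9 and 47.3 CPM in fibronectin_antiITGAV and 39.0, 52.1, 46.2 and 42.1 CPM in fibronectin_IgG. It had 49.1, 48.9, 45.1 and 42.6 CPM in uncoated_antiITGAV and 45.2, 46.0, 35.7 and 43.2 CPM in uncoated_IgG. The log2 change on fibronectin was -0.12 ± 0.19 (SE, adjusted p by edgeR = 0.756), with the widest standard error of the 9. Without fibronectin_antiITGAV 3 it was 0.02 (adjusted p by edgeR = 0.897), and under IgG it was 0.08 (adjusted p by edgeR = 0.952). Its value is also uncertain because 908 of its bases lie between the start and end of Tmem189 on the other strand, which averaged 124 CPM. Second strands were made with dTTP, per the labels, so the kit did not mark strand and reads in that overlap cannot be assigned by strand. Whether exons of Tmem189 reach into the overlap was not examined.

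**Figure D2:**
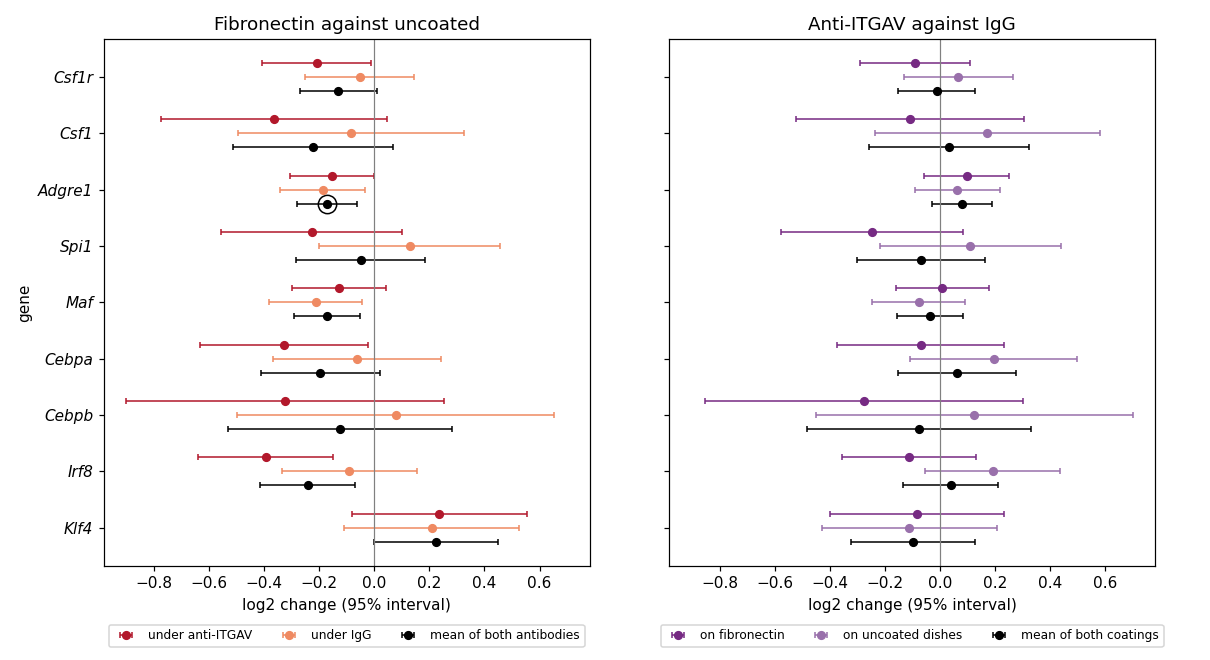
Log2 change (x axis) of each gene (y axis) from edgeR with its 95% interval, for fibronectin against uncoated (left) and anti-ITGAV against IgG (right), within each level of the other factor and as the mean of both. The circled point, Adgre1 over both antibodies at -0.17, is the 1 with an adjusted p under 0.05, and every antibody interval includes 0.

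Several lists of other cell types' markers also differed between coatings, most of them lower on fibronectin. Over both antibodies 6.58% of all genes were called higher and 5.26% lower. The neutrophil list of 16 genes, 1 of which is Csf3r, summed to 333 to 477 CPM in fibronectin_antiITGAV and 454 to 563 CPM in fibronectin_IgG, against 465 to 511 CPM in uncoated_antiITGAV and 562 to 612 CPM in uncoated_IgG. Of these 16 genes 0 rose and 8 fell on fibronectin over both antibodies by edgeR's test, with a median log2 change of -0.33. The list of 11 fibroblast and stromal genes summed to 6.10 to 9.16 CPM and 8.05 to 9.71 CPM on fibronectin with anti-ITGAV and IgG, and to 11.2 to 14.3 CPM and 13.2 to 15.9 CPM on uncoated dishes with anti-ITGAV and IgG. Of the defining fibroblast markers Lum was at 0 in every library, and the highest, Col1a1, averaged 5.31 CPM. B lymphocyte genes, led by Ighm at 50.1 CPM, summed to 30.0 to 36.8 CPM in fibronectin_antiITGAV and 31.0 to 45.2 CPM in fibronectin_IgG, against 69.3 to 79.9 CPM in uncoated_antiITGAV and 60.9 to 78.1 CPM in uncoated_IgG. Of 8 tested mast cell and basophil genes 0 rose and 4 fell, and of 4 tested erythroid and megakaryocyte genes 0 rose and 1 fell. The erythroid and megakaryocyte list, led by Pf4 at 525 CPM, summed to 450.3 to 482 CPM in fibronectin_antiITGAV and 394 to 503 CPM in fibronectin_IgG, against 607 to 701 CPM in uncoated_antiITGAV and 547 to 639.9 CPM in uncoated_IgG. The endothelial list went the other way, with 2 of 4 tested genes higher, 1 lower and a median of 0.41, led by Vwf at 21.8 CPM. Its sums overlapped between the coatings, with fibronectin_antiITGAV 3 lowest at 22.2 CPM. Under IgG they did not, with 32.3 to 34.8 CPM on fibronectin and 24.4 to 25.8 CPM on uncoated dishes. Sums of monocyte genes (1 higher, 2 lower of 10) and dendritic cell genes (1 higher, 0 lower of 10) also overlapped. Without fibronectin_antiITGAV 3, 15.7% of all genes were called in either direction. In that fit 1 neutrophil gene rose and 10 fell, 3 endothelial genes rose and 1 fell, and 1 monocyte gene rose and 4 fell. Of mast cell and basophil genes 0 rose and 3 fell, and the counts for erythroid and megakaryocyte and for dendritic cell genes stayed the same. The part of these cells in the members' values was not tested.

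With αV integrin neutralized, none of the 9 genes passed edgeR's test on either coating. On uncoated dishes 0 of 9 were called, beside 0.0129% of all genes, with 470 genes under 0.05 before adjustment, and DESeq2 called 0 of the 9 among 16 genes in all. On fibronectin 0 of 9 were called, beside 0.0129% of all genes, with 720 genes under 0.05 before adjustment, and again 0 of the 9 by DESeq2. Over both coatings 0 of 9 were called, beside 0.0711% of all genes, with 555 under 0.05 before adjustment and 0 of the 9 by DESeq2.

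For Csf1r the interval was -8.70% to 20.2% on uncoated dishes and -18.1% to 7.85% on fibronectin for anti-ITGAV against IgG. For Adgre1 it was -6.05% to 16.3% on uncoated dishes and -3.80% to 19.1% on fibronectin. For Maf it was -15.7% to 6.61% on uncoated dishes and -10.5% to 13.1% on fibronectin. All of them include 0, and differences within these intervals are not excluded here. The widest were those of Cebpb, -26.8% to 62.7% on uncoated dishes and -44.6% to 23.2% on fibronectin.

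On uncoated dishes the antibody groups did not overlap for 2 of the 9 genes, beside 3.15% of all genes. Irf8 averaged 213 ± 6.95 CPM in uncoated_antiITGAV and 186 ± 8.86 CPM in uncoated_IgG (SD, n = 4), a log2 change of 0.19 ± 0.12 (SE, adjusted p by edgeR = 0.988). Maf averaged 774 ± 44.2 CPM in uncoated_antiITGAV and 816 ± 15.8 CPM in uncoated_IgG (SD, n = 4), a log2 change of -0.08 ± 0.08 (SE, adjusted p by edgeR = 0.988). On fibronectin the antibody groups were apart for 0 of the 9 genes, beside 2.42% of all genes. The largest values there were Cebpb at -0.28 and Spi1 at -0.25, and without fibronectin_antiITGAV 3 these were 0.02 and -0.06.

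The coating by antibody interaction, which asks whether the antibody's change differed between coatings, passed for 0 of the 9 genes and for 0% of all genes. Its values were negative for Csf1r, Csf1, Spi1, Cebpa, Cebpb and Irf8, and positive for Adgre1, Maf and Klf4. The largest was -0.40 ± 0.39 for Cebpb (SE, adjusted p by edgeR = 0.664), and without fibronectin_antiITGAV 3 it was -0.11. Before adjustment 614 genes were under 0.05 by edgeR, and the 1 gene that DESeq2 called was not among the 9.

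In the library fibronectin_antiITGAV 3 the members richest in G and C were mostly low and those poorest in it were not, with Klf4 as an exception. Cebpb, whose transcripts are 67.2% G or C, differed by -1.93 on the log2 scale from the mean of the other 3 libraries of its group. Spi1 (54.8%) differed by -0.92, Cebpa (61.0%) by -0.62 and Irf8 (57.8%) by -0.59. Adgre1 (48.2%) and Maf (50.7%) differed by 0.18 and 0.19. Klf4, at 61.5%, differed by -0.33. The 7 genes other than Csf1 and Klf4 lay outside the range that the other 15 libraries span, each set against its own group.

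Over all genes tested the same library had a median of 0.79 for transcripts under 40% G or C, -0.16 from 50 to 55%, -0.71 from 55 to 60%, -1.20 from 60 to 65% and -1.54 at 65% or more. Cebpb, Spi1, Csf1r and Csf1 were lower than the medians of their own ranges of GC content, and Klf4, Cebpa, Irf8 and Maf were higher. Spi1 spread over the 16 libraries by a factor of 2.27 between highest and lowest, and Cebpb by 4.38. The SD within groups of Cebpb was 0.50 on the log2 scale with this library and 0.15 without it, beside a median of 0.28 over all genes tested. Adgre1 and Maf had the smallest, at 0.07 and 0.09.

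**Figure D3:**
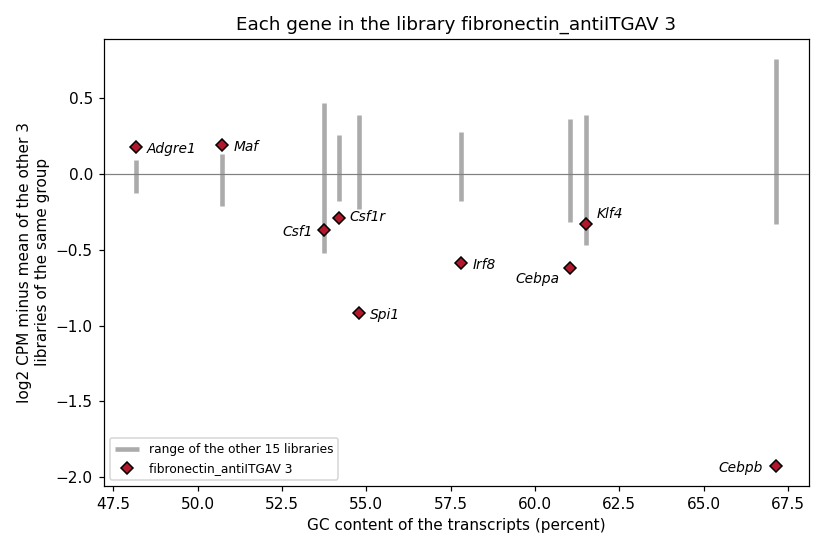
Difference of log2 CPM between fibronectin_antiITGAV 3 and the mean of the other 3 libraries of its group (y axis) against the GC content of each gene's transcripts in percent (x axis), with grey bars for the range of the other 15 libraries. The points run from 0.18 for Adgre1, the gene poorest in G and C, to -1.93 for Cebpb, the richest.

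A correction for each library's GC trend moved some members and left others. With it, the coating change over both antibodies was -0.19 for Adgre1, -0.17 for Maf and -0.16 for Irf8, each past edgeR's threshold. It was 0.37 for Klf4, which then also passed (adjusted p by edgeR = 0.0327). In that fit 3145 of all 15469 genes passed, against 1831 without the correction. Cebpa had -0.07 in that fit and Cebpb -0.02, against -0.20 and -0.12 without the correction. Over 29 alternatives the sign of the coating change did not turn for Adgre1 (-0.21 to -0.16), Maf (-0.20 to -0.15), Irf8 (-0.29 to -0.16) or Klf4 (0.16 to 0.37). Nor did it turn for Csf1r (-0.17 to -0.09), Csf1 (-0.30 to -0.13) or Cebpa (-0.25 to -0.07). It turned in 3 of 29 for Spi1 and 2 of 29 for Cebpb.

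**Figure D4:**
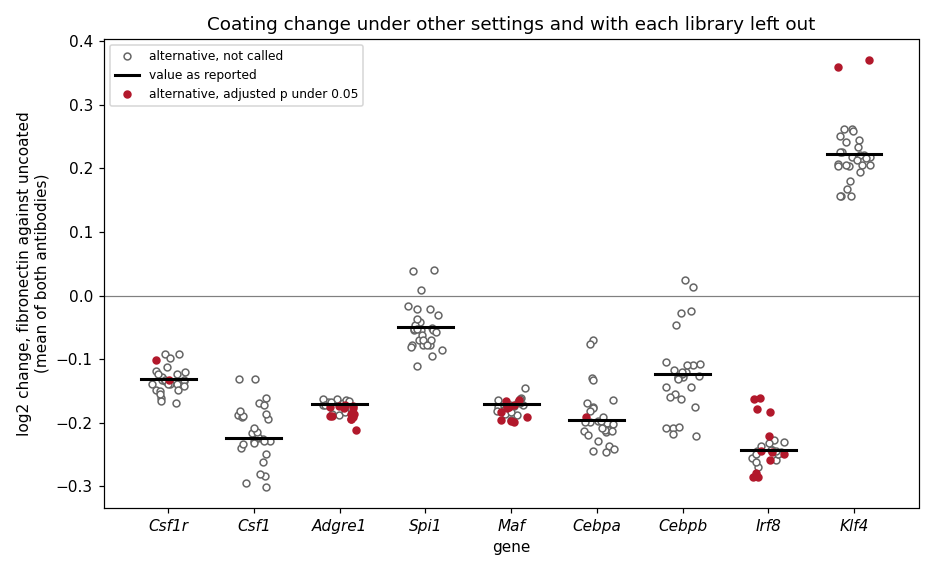
Log2 change of each gene on fibronectin against uncoated dishes, over both antibodies (y axis), with 1 point per alternative setting or left-out library, filled red where the adjusted p is under 0.05, and a black line at the value as reported. Adgre1, Maf and Irf8 stay below 0 in every alternative run and pass in 14, 11 and 12 of 29.

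Related receptors and targets of growth factor signalling included genes with larger coating changes than the 9. Of 9 tested genes for related growth factors and their receptors, 0 rose and 3 fell on fibronectin over both antibodies, beside 6.58% of all genes higher and 5.26% lower, with a median of -0.25. Csf3r, the receptor for G-CSF, fell to 25.7 ± 3.77 CPM on fibronectin, against 43.5 ± 3.78 CPM on uncoated dishes (SD, n = 8), a log2 change of -0.76 ± 0.09 (SE, adjusted p by edgeR = 3.99e-05). Csf2rb, the shared β chain of the GM-CSF, IL-3 and IL-5 receptors, had a log2 change of -0.34 (adjusted p by edgeR = 0.00161). Its neighbour Csf2rb2, the IL-3 receptor β chain of mice, had -0.25 (adjusted p by edgeR = 0.00571). Csf2rb and Csf2rb2 are near-identical copies, so their counts are uncertain singly. Il34, Csf2, Csf3 and Il3 did not pass the filter on low counts. Without fibronectin_antiITGAV 3 the list had 1 higher and 3 lower, with a median of -0.13.

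Of 40 genes of CSF-1 receptor signalling 7 rose and 2 fell on fibronectin over both antibodies, beside 6.58% of all genes higher and 5.26% lower, with a median of -0.06. Under anti-ITGAV 4 rose and 0 fell, beside 2.84% of all genes higher and 2.83% lower. Under IgG 5 rose and 0 fell, beside 2.37% higher and 1.42% lower. The 3 with the largest rises were targets of growth factor signalling. Ccnd1, which encodes cyclin D1, rose to 398 ± 35.1 CPM on fibronectin, against 165 ± 26.4 CPM on uncoated dishes (SD, n = 8), a log2 change of 1.27 ± 0.09 (SE, adjusted p by edgeR = 2.77e-07). Myc, a factor of cell growth, rose to 23.2 ± 4.16 CPM, against 8.32 ± 1.94 CPM on uncoated dishes (SD, n = 8), a log2 change of 1.48 ± 0.14 (SE, adjusted p by edgeR = 3.49e-06). Ets2, an ETS factor activated through the MAP kinase pathway, rose to 129 ± 12.8 CPM, against 59.1 ± 11.2 CPM on uncoated dishes (SD, n = 8), a log2 change of 1.13 ± 0.10 (SE, adjusted p by edgeR = 1.54e-06). Fyn, a Src family kinase, had 0.24 (adjusted p by edgeR = 0.00467). Without fibronectin_antiITGAV 3 the list had 8 higher and 2 lower.

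Of 44 tested genes for other macrophage and monocyte transcription factors 8 rose and 6 fell on fibronectin, beside the same 6.58% and 5.26% of all genes, with a median of -0.08. Id2, an inhibitor of helix-loop-helix factors, rose to 65.2 ± 13.7 CPM, against 37.0 ± 3.02 CPM on uncoated dishes (SD, n = 8), a log2 change of 0.81 ± 0.10 (SE, adjusted p by edgeR = 6.72e-05). Runx3, a runt-domain factor, had 0.93 (adjusted p by edgeR = 0.0003), and Bhlhe41, a helix-loop-helix repressor, had 0.46 (adjusted p by edgeR = 0.000268). Spic, a relative of PU.1 found in iron-recycling macrophages, fell to 1.04 ± 0.45 CPM on fibronectin, against 3.04 ± 0.43 CPM on uncoated dishes (SD, n = 8), a log2 change of -1.55 ± 0.22 (SE, adjusted p by edgeR = 0.000174). For anti-ITGAV against IgG 0 genes of these 3 lists were called on either coating or over both. The calls of the genes named here as risen or fallen held when any 1 library was left out. Without fibronectin_antiITGAV 3 the list had 10 higher and 6 lower, and 1 of its genes was higher with anti-ITGAV over both coatings.

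Over the 16 libraries some members ran together. The values below are Pearson correlations of log2 CPM over 16 libraries, which share depth, composition and GC trends, and are descriptions only. Csf1r ran with Cebpa (r = 0.94, and 0.89 without fibronectin_antiITGAV 3), Irf8 (0.91, and 0.86) and Spi1 (0.81, and 0.71). Cebpa and Irf8 had 0.89, and 0.78 without that library. Adgre1 had 0.42 with Csf1r and 0.34 with Irf8, and 0.74 and 0.82 without it. Maf had -0.11 with Csf1r and -0.59 with Klf4. Spi1 and Cebpb had 0.94, and 0.66 without fibronectin_antiITGAV 3.

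Among 8427 other protein-coding genes with a mean of at least 10 CPM (8428 for Csf1 and Klf4), up to 3 of those most like each member are named. For Csf1r these were Grn (r = 0.99), Ttc7 (0.98) and Man2b1 (0.97). For Adgre1 they were Aplp2 (0.97), Ifngr1 (0.96) and Dennd5a (0.96), and for Maf Slc40a1 (0.95), Fam107b (0.94) and Cdkn1b (0.94). These genes lay near the member in GC content for Adgre1, with 48.2% in Adgre1 and 48.3 to 50.1% in its 3. For Spi1 they were Tkt, C1qa and Sdc3 (0.99 each), for Irf8 Man1c1 (0.98) and Mocs1 (0.97), and for Cebpa Sqstm1 (0.97), Dtnbp1 (0.97) and Plekhm1 (0.96). Irf8 (57.8%) also lay near Man1c1 (57.3%) and Mocs1 (56.9%) in GC content. Cebpa (61.0%) lay further from its genes, at 53.6 to 56.6%. Cebpb was most like Gnas, Ccdc88b and Stk11 (0.99 each), but without fibronectin_antiITGAV 3 these had 0.83, 0.80 and 0.80. The low genes had weaker likenesses, with Csad (0.76), Tmem51 (0.72) and Bcorl1 (0.71) for Csf1 and Il17ra (0.81), Trib1 (0.80) and Sema4c (0.79) for Klf4.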

How the data were processed

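Polyadenylated RNA of 16 libraries was sequenced in pairs. The authors deposited whole-number counts per gene with gene lengths, and FPKM values, per the file headers; mm10, GRCm38.p6, featureCounts, HISAT2 and StringTie are named, per the submitters' processing notes. Tool versions and roles and the strand setting of the counting were not given in the sources used here. Each FPKM value the authors deposited was the count over length and 1 constant per library, 0.989 to 1.04 times its total. Replicate pairs differed beyond counting noise (chi-square over degrees of freedom 5.11 to 182).

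From the counts, genes passing filterByExpr (minimum count 10) were fitted with edgeR 4.0.16 in R 4.3.3 (TMM scaling, robust quasi-likelihood test, 1 mean per group), with p-values adjusted by Benjamini-Hochberg over all 15469 genes and a threshold of 0.05. Alternatives used DESeq2 1.42.0, limma 3.58.1 (voom with quality weights, and log2 FPKM with pseudocounts of 1 and 0.1), other scalings and filters, a GC offset, a replicate block and leaving out each library. Scripts were tested on simulated data. The members and gene lists were chosen with earlier results of these data known. Besides the members, genes are named by rule: up to 4 of each list and comparison with the smallest adjusted p under 0.05, the most abundant gene of each marker list and the 3 genes most like each member, of which 1 is not reported here. Untested list members were named after their values were seen. Sequences are from RefSeq. Figures were drawn with matplotlib 3.10.9.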

Additional observations from a re-analysis of the deposited data

Results flagged for a closer look

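Within groups of 4 libraries 3 values lay far from the other 3, by the gap to the nearest library as a share of the group's range (critical value 0.829). Of 36 groups examined, chance alone flags about 1 in 20. Spi1 had 176.14 CPM in fibronectin_antiITGAV 3, with the nearest library of that group at 318 CPM and a ratio of 0.8296. Spi1 also had 342.763 CPM in uncoated_IgG 4, with the nearest at 313 CPM and a ratio of 0.893. Maf had 839.916 CPM in uncoated_IgG 2, with the nearest at 811 CPM and a ratio of 0.897.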

How the results depend on the processing

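No call of a member turned direction under the alternatives run. Of 1863 member values under 30 settings, 45 gained and 15 lost a call, and 82 uncalled values changed sign. For fibronectin against uncoated over both antibodies, 1 member was called as reported. It was 3 with DESeq2, beside 2258 of 14913 genes in all, and 3 with a filter at 1 CPM, beside 1907 of 12461. It was 3 with limma on log2 FPKM at either pseudocount, beside 1749 (pseudocount 1) and 1722 (0.1) of 11324 genes. With voom it was 5, beside 4186 of 15469, namely Csf1r, Adgre1, Maf, Cebpa and Irf8, each as lower. With the GC offset it was 4, beside 3145 of 15469. It was 0 with upper-quartile scaling, beside 1656 of 15469 genes. With no filter on counts it was also 0, beside 1437 of 28958, and with no filter on FPKM 0, beside 1517 of 28958. Under anti-ITGAV, with 0 as reported, DESeq2, upper-quartile scaling, the 1 CPM filter and both FPKM pseudocounts called 1, Irf8 as lower, and voom called 3. Over all genes these called, in that order, 1509 of 13231, 789 of 15469, 1001 of 12461, 956 and 944 of 11324, and 2216 of 15469. The GC offset also called 1, but that was Klf4 as higher (0.58), with Irf8 at -0.18 against -0.39 as reported. It called 1740 of 15469 genes in all. Under IgG, with 0 as reported, voom called 2, beside 2487 of 15469 genes. Leaving out 1 library gave 0 to 3 called over both antibodies and 0 to 1 under anti-ITGAV. The GC offset together with leaving out fibronectin_antiITGAV 3, chosen after seeing the data, called 4 over both antibodies, 1 under anti-ITGAV and 1 under IgG. Those over both antibodies were Csf1r, Adgre1, Maf and Irf8, each as lower. Over all genes that fit called 3424, 1684 and 2027 of 15765. The causes were not tested.

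Replicate numbers recur across groups. Over 24 pairs of same-numbered samples, correlations of deviations ran from -0.30 to 0.28, with 4 pairs over 0.1. In 4 of the 24 pairs the first library correlated best with its own number in the other group. The deviations still hold each library's GC trend, so these values cannot show whether samples were paired. With the replicate block 0 members were called over both antibodies (Adgre1 adjusted p by edgeR = 0.0632), beside 1519 of 15469 genes. With block and GC offset 4 were called over both, beside 2931 of 15469 genes. Under anti-ITGAV that fit called 1, Klf4 as higher, beside 1565 of 15469.

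Over all genes, calls over both antibodies ranged from 1325 to 4186 against 1831 as reported, under IgG from 253 to 2487 against 586, and under anti-ITGAV from 251 to 2216 against 876. For anti-ITGAV against IgG they ranged from 0 to 157 on uncoated dishes against 2, from 0 to 16 on fibronectin against 2, and from 4 to 103 over both against 11, and for the interaction from 0 to 1. Fits on the compared groups alone cannot give the means or the interaction. Counts were lowest for Csf1 and Klf4, so relative counting error was largest for them, but its part in their spread was not tested.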
